A study of Mus musculus with 2 samples.

Results

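The genes described here are the autosomal protein-coding members of 4 families of developmental transcription factors. They were chosen by symbol, as Sox, Pax, Tbx or Gata followed directly by a number, and T and Tbr1 were placed with the Tbx family. The rule gave 46 genes of 20560 autosomal protein-coding genes, made up of 18 Sox, 9 Pax, 14 Tbx and 5 Gata genes. The X-linked Gata1, Sox3 and Tbx22 were left out. The rule itself uses no measured value, but it was chosen with earlier results of these data known.

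The values come from a map of 5-hydroxymethylcytosine (5hmC) in wild-type prospermatogonia of E17.5 mouse embryos. Prospermatogonia are the foetal precursors of spermatogonia. A pool of 30000 cells from several embryos gave 50 ng of DNA for 5hmC-Seal, in which 5hmC is tagged with a biotinylated glucose and captured on streptavidin. There are 2 samples from batch 1, a captured library and the DNA before capture, and only the captured library gave values here. It is a single library without a replicate, so every value describes its list of 108395 broad peaks, no test was possible, and intervals cover counting error only. The list holds no RNA values and no read depth, so the cell type could not be checked against its markers.

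5hmC is made when TET enzymes oxidise 5-methylcytosine. In many tissues it lies in gene bodies and at distal regulatory regions, and it is scarce at unmethylated CpG-rich promoters. SOX proteins bind DNA through an HMG box, PAX proteins through a paired domain, TBX proteins through a T-box and GATA proteins through zinc fingers. All 4 families direct the choice of lineage in the embryo. In the foetal testis, SOX9, SOX8 and GATA4 are known from the Sertoli cells around the germ cells, and SOX2 is part of the pluripotency network.

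Each gene was given a window of its span with 10 kb on each side, and a peak was counted when it touched the window. Of the 46 genes, 38 (82.6%; exact 95% interval 68.6 to 92.2) had at least 1 peak, beside a background of 81.8% of all autosomal protein-coding genes. The Sox family had a peak at 14 of 18 genes, Pax at 7 of 9, Tbx at 12 of 14 and Gata at 5 of 5. Their exact intervals all held the background share. The span itself was touched at 29 of the 46 genes (63.0%), beside 64.3% of all genes. By family this was 8 of 18 Sox, 6 of 9 Pax, 10 of 14 Tbx and 5 of 5 Gata genes. The median share of the window covered by peaks was 4.16% for the 46 genes and 4.24% for all genes. As a group the 46 genes were thus near the background on each of these measures.

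The Gata genes had the highest peak density of the families, with intervals that overlapped. Pooled over their windows they had 9.99 peaks per 100 kb (Poisson 95% interval 6.52 to 14.6), against 5.73 (4.09 to 7.80) for Tbx, 5.66 (4.67 to 6.79) for Sox and 4.77 (3.36 to 6.57) for Pax. All autosomal protein-coding genes had 5.57 peaks per 100 kb. The Gata interval lay above that value and overlapped those of the other 3 families. Long genes weigh most in the pooled value over all genes. In 5 classes of gene length, shortest to longest, all genes had median densities of 4.38, 7.31, 7.54, 6.46 and 4.75 per 100 kb. The Gata genes were in all but the shortest class, and their interval held 7.31 and 7.54, though these are medians per gene. The pooled Sox value rests mostly on the long genes Sox5 and Sox6: without them, 0.468 of 2.03 Mb of window was left, with 8.12 peaks per 100 kb (5.75 to 11.1). Peaks covered 8.88% of the pooled Gata windows, 4.16% of Sox, 4.02% of Tbx and 3.02% of Pax, beside 4.92% over all genes. Without Sox5 and Sox6, Sox coverage was 7.70%, near the Gata value. Among peaks with a −log10 q of 3 or more, Gata had 1.15 per 100 kb (3 peaks at 2 genes), Sox 1.03, Pax 0.387 and Tbx 0.287. All genes had 0.887. With 5 or more, a peak was left at 0 of 5 Gata, 0 of 9 Pax, 1 of 14 Tbx and 5 of 18 Sox genes, beside 17.0% of all genes, a share at which 0 of 5 is not far from the background.

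**Figure D1:**
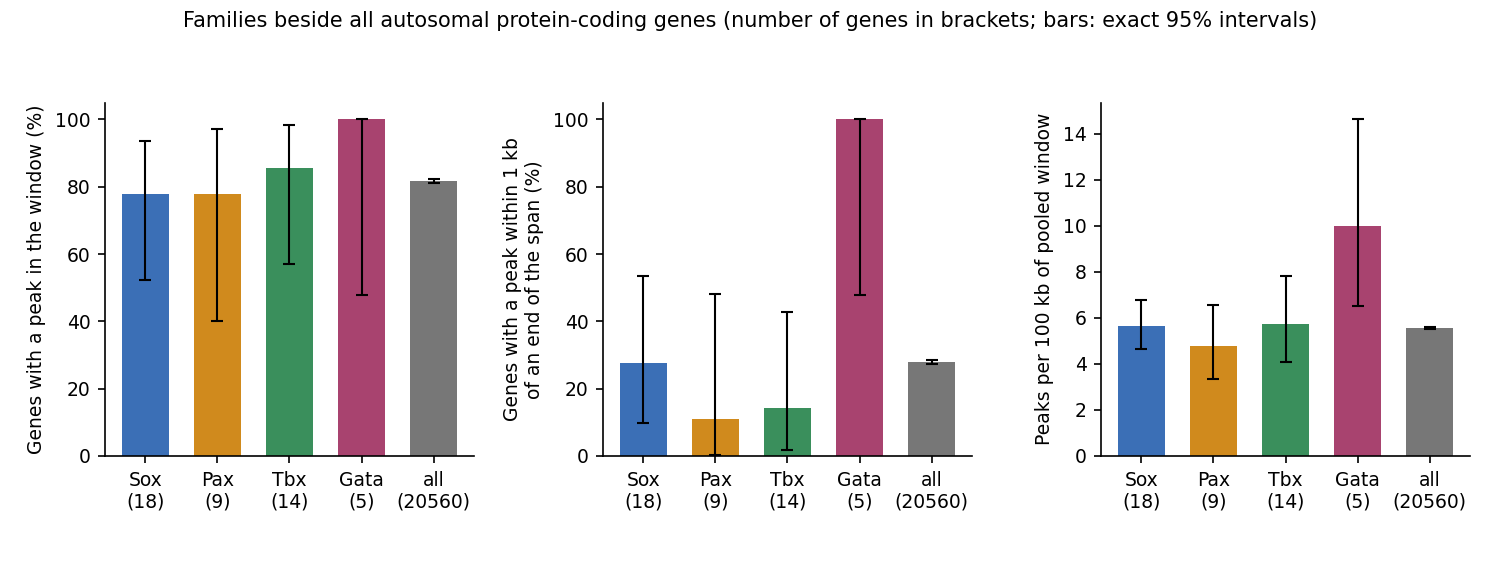
Share of genes with a peak in the window (left), share with a peak within 1 kb of an end of the span (middle) and peaks per 100 kb of pooled window (right) for each family and for all autosomal protein-coding genes. Error bars are exact 95% binomial or Poisson intervals, and the 5 Gata genes stand at 100% in the left and middle panels.

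Within the families the spread was wide. Coverage ran from 0% to 33.5% of the window in Sox, from 0% to 4.73% in Pax, from 0% to 13.3% in Tbx and from 4.50% to 17.0% in Gata. All 5 Gata genes were above the median of all genes, as were 9 of 18 Sox, 7 of 14 Tbx and 2 of 9 Pax genes. Ranked among genes of like length, 4 of 5 Gata, 8 of 18 Sox, 7 of 14 Tbx and 1 of 9 Pax genes were above percentile 50. Gata3 was at 50.7 and Gata6 at 47.5.

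**Figure D2:**
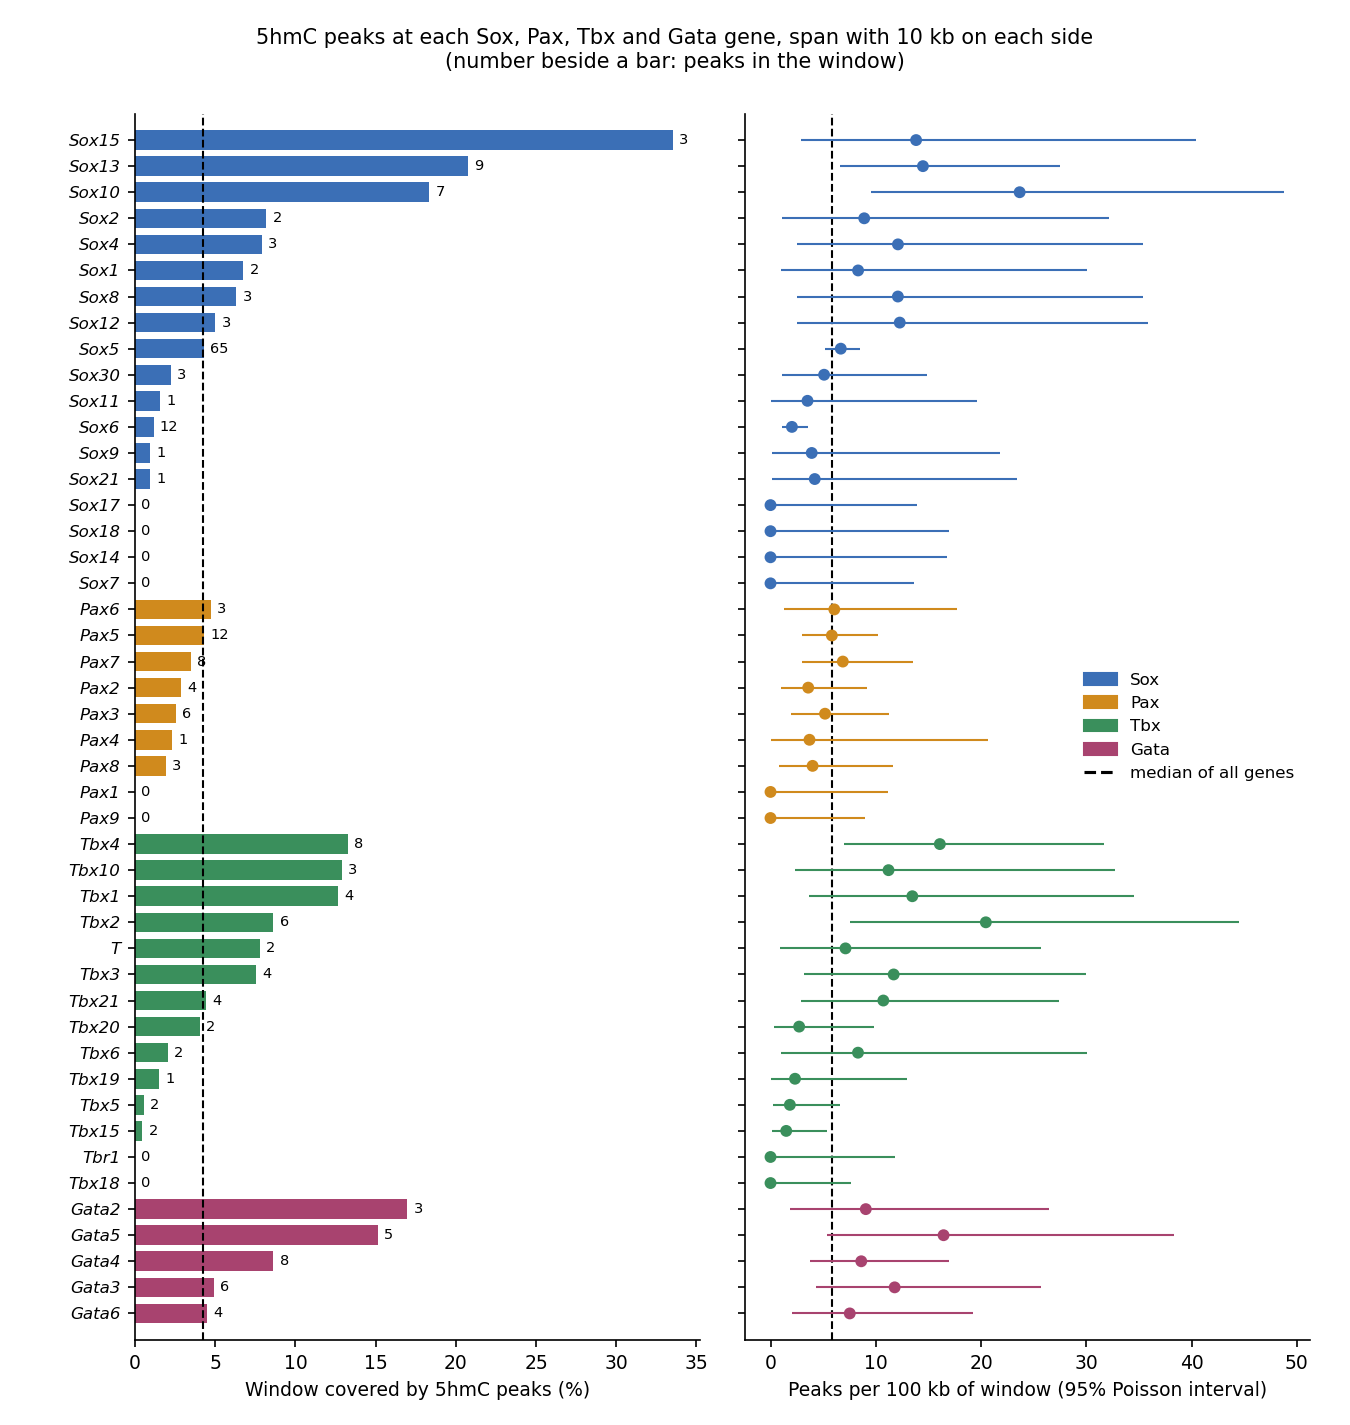
Share of the window covered by peaks, with the number of peaks beside each bar (left), and peaks per 100 kb with exact 95% Poisson intervals (right), for each of the 46 genes. Dashed lines are the medians of all genes, 4.24% and 5.81 peaks per 100 kb. The 8 genes at 0 include Sox7, Sox17 and Sox18, and Pax1 and Pax9.

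Promoters of these genes are shown for the few starts under a peak, with some of the many without one. The RefSeq table (GRCm38.p6, the build of mm10) gave promoters of 300 bases, 250 before and 50 after the start, for 33 of the 46 genes, with 43 starts in all. Entries were not found for Gata4, Gata6, Pax3, Pax4, Sox7, Sox9, Sox10, Sox17, Sox18, Tbx2, Tbx3, Tbx5 and Tbx15. Some starts lie inside the span and away from its 5′ end, such as those of Gata3 and Sox5. A peak overlapped 4 of the 43 promoters (9.30%; exact 95% interval 2.59 to 22.1), beside 4.15% of 20085 promoters of all genes. These were the promoters of Pax8 (chr2:24475550-24475849, minus strand, 210 bases under the peak), Tbx19 (chr1:165160724-165161023, minus strand, 270 bases) and 2 of the 6 Sox6 starts. The Sox6 promoters lay at chr7:116038695-116038994 (192 bases under the peak) and chr7:115824661-115824960 (60 bases), both on the minus strand. Each is written 5′ to 3′ with every CpG in capitals, which is the letters CG and reads the same on both strands.
Pax8: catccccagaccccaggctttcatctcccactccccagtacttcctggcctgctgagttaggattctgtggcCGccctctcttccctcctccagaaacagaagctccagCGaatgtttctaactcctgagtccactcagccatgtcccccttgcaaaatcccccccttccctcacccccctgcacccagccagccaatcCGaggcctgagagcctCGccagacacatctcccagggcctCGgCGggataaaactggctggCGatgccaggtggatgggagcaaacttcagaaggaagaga
Tbx19: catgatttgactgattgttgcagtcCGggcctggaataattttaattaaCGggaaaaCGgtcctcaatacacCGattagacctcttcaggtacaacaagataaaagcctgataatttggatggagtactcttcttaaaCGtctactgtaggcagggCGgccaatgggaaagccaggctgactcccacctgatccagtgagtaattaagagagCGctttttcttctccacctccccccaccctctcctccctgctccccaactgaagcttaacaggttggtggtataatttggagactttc
Sox6, outer start: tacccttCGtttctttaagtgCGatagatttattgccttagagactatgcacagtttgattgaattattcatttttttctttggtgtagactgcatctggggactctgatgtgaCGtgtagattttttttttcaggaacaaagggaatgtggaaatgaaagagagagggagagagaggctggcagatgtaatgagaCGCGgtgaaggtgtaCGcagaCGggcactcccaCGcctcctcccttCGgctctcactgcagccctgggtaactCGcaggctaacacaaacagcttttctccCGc
Sox6, inner start: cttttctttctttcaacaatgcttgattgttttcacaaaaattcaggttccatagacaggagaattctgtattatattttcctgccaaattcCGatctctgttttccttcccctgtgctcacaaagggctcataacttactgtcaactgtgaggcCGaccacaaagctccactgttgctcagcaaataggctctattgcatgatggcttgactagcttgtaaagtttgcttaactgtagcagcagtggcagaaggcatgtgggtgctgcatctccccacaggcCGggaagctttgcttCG
The Pax8 promoter held 7 CpGs, that of Tbx19 also 7, the outer Sox6 promoter 11 and the inner one 4. CG occurred in 95.6% of the promoters of all genes, which had a median of 14 CpGs.

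For contrast, 3 CpG-rich promoters are shown that had no peak although each gene had peaks in its window; they were chosen after their values were seen. Sox2 (chr3:34649745-34650044, plus strand) had 27 CpGs and its nearest peak 3.49 kb from the start. Sox12 (chr2:152397997-152398296, minus strand) had 47 CpGs, the most of the 43 promoters, and a peak 0.647 kb from the start. Gata5 (chr2:180334630-180334929, minus strand) had 26 CpGs and a peak 0.985 kb away.
Sox2: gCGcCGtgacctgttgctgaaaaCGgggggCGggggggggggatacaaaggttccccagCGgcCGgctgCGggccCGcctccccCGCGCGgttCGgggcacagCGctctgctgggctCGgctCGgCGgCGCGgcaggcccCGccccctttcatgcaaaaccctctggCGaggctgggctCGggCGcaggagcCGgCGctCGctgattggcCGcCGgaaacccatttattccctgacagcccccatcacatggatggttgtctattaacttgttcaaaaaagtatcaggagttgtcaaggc
Sox12: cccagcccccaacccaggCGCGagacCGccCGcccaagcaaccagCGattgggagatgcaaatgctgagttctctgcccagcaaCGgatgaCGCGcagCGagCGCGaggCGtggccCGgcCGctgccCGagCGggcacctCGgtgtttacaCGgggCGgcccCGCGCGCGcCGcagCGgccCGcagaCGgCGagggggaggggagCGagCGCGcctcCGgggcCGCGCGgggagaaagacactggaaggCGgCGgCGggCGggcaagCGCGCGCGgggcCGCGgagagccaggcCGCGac
Gata5: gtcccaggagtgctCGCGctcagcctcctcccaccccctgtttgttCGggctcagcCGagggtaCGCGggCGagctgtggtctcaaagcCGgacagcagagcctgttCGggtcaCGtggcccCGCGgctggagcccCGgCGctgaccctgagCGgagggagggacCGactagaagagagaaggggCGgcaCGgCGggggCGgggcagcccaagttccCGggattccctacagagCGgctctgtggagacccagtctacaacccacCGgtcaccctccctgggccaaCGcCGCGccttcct
The capitals are packed together in these 3 promoters and scattered in the 4 above. The 3 were picked as CpG-rich, so this contrast follows from the choice. Starts with few CpGs also lacked a peak, such as those of Tbx10 with 4 CpGs and Sox15 with 5.

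All promoters of the genome's autosomal protein-coding genes were put into 3 classes by CpG number. In the class with 22 to 67 CpGs, 0.323% of 6511 promoters were under a peak, against 4.88% of 6593 with 7 to 21 CpGs and 7.02% of 6981 with 0 to 6. Among the promoters of the 4 families, 0 of 16 (exact 95% interval 0 to 20.6) in the CpG-rich class were under a peak, 3 of 20 (3.21 to 37.9) in the middle class and 1 of 7 (0.361 to 57.9) in the CpG-poor class. The 4 Gata promoters were all in the CpG-rich class, with 22 to 32 CpGs. The number of family promoters is too small to tell their shares from those of all genes.

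**Figure D3:**
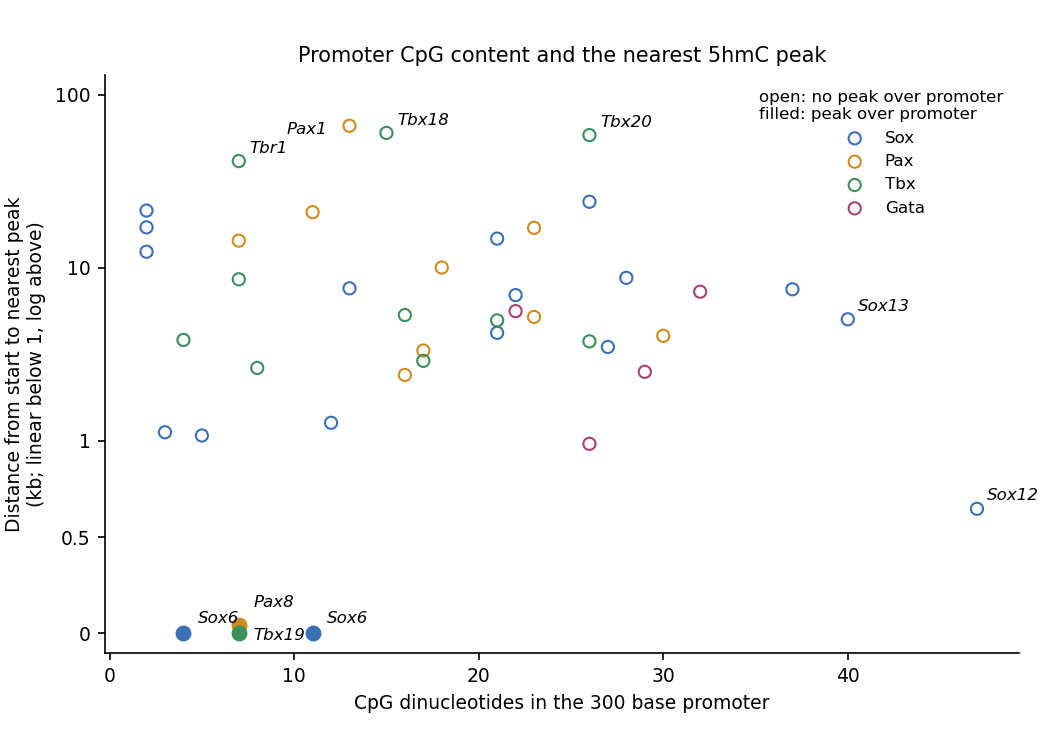
Number of CpGs in the 300 base promoter (x axis) against the distance from the start to the nearest peak (y axis, kb, linear below 1 and logarithmic above) for the 43 starts. Filled points are the 4 promoters under a peak, at Sox6 (both), Pax8 and Tbx19, all with 4 to 11 CpGs. The point for Sox12, with 47 CpGs, has a peak 0.647 kb away.

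More starts of these genes had a peak downstream than upstream. Of the 43 starts, 23 (53.5%) had a peak 2 to 10 kb after the start and 16 (37.2%) had one 2 to 10 kb before it, beside 49.2% and 41.9% of all starts. Peaks covered 8.40% of the sequence 2 to 10 kb after the start and 4.14% of that before it, beside 8.03% and 5.82% over all starts. Starts of 1 gene share peaks, Sox6 alone gave 6 of the 43, and in short genes 10 kb runs past the gene.

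**Figure D4:**
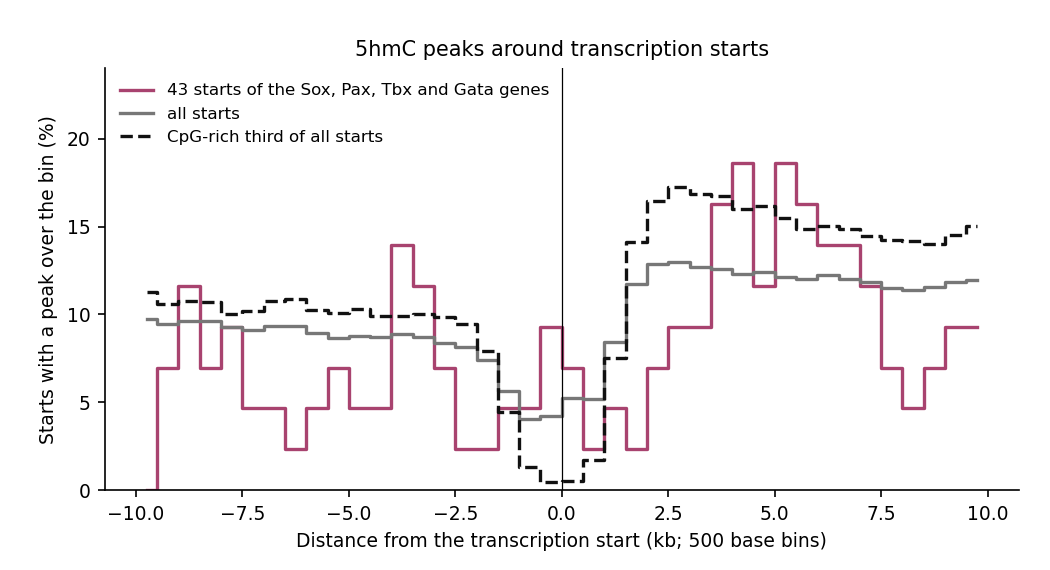
Share of transcription starts with a peak over each 500 base bin (y axis, %) by distance from the start (x axis, kb, positive in the direction of transcription). The line for the 43 starts of the 4 families is jagged because 1 start is 2.33%, and it rises after the start as do the lines for all starts and for the CpG-rich class of starts.

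The GATA factors bind the sequence that gives them their name. GATA2 and GATA3 act in blood and T cells, and GATA4, GATA5 and GATA6 in heart, endoderm and gonad. Gata2 (chromosome 6, 88193891 to 88207032) had 3 peaks over 17.0% of its window, mostly from a peak of 4.26 kb and fold enrichment 3.10 that covers the 3′ end of the gene. The fold is the authors' ratio of captured signal to the background that the peak caller assumed. Gata5 (chromosome 2, 180325088 to 180335503) had 5 peaks over 15.1%, with the highest fold of the family, 4.95, inside the gene at 180332087 to 180332565. Gata4 (chromosome 14, 63198914 to 63271712) had 8 peaks over 8.61%, of which 6 touched the span. Gata3 (chromosome 2, 9857078 to 9887953) had 6 peaks over 4.91%, and Gata6 (chromosome 18, 11052510 to 11085636) had 4 over 4.50%. The shorter genes Gata2 and Gata5 thus had more of their windows covered than the other three.

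All 5 Gata genes had a peak within 1 kb of an end of the span (exact 95% interval 47.8 to 100%), where the background is 27.9% of all genes. The shares were 5 of 18 for Sox, 1 of 9 for Pax and 2 of 14 for Tbx. The peak lay at the 5′ end in Gata3 (fold 3.58) and Gata5 (2.74), at the 3′ end in Gata2, and at the high-coordinate end in Gata4 (3.36) and Gata6 (3.12). The only Gata3 start with a promoter entry lies inside the span, at 9878600, and its nearest peak is 5.62 kb away. The Gata3 peak also overlaps the non-coding gene 9230102O04Rik, and the Gata5 peak overlaps Gata5os. None of these 5 peaks reached a −log10 q of 3, at which 4.18% of all genes had an end peak. The annotation used gives spans only, so exons and introns were not separated.

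The Sox family ranged most widely, and its most covered member was a small gene among neighbours. Sox15 (chromosome 11, 69655037 to 69656727), expressed in embryonic stem cells and myoblasts, had 33.5% of its window covered. Among genes of its length class (0.144 to 4.42 kb) it was at percentile 99.3. Its 3 peaks, of fold 3.36 to 3.55, each overlap a neighbouring gene: Fxr2, Mpdu1 and Cd68. Only the peak on Mpdu1, at 69656112 to 69659399, touches Sox15. Whether the coverage belongs to Sox15 or to its neighbours cannot be told apart.

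The SOXD genes are Sox5, Sox6 and Sox13, and SOX5 and SOX6 act with SOX9 in cartilage. Sox5 (chromosome 6, 143828425 to 144782287, 954 kb) had 65 peaks, the most of the 46 genes, and all touched its span. Sox6 (chromosome 7, 115470872 to 116040776, 570 kb) had 12. Per 100 kb this was 6.67 (Poisson 95% interval 5.15 to 8.51) against 2.03 (1.05 to 3.55), beside 5.57 over all genes. The intervals of these long paralogues did not overlap. Coverage was 4.28% and 1.15%. A −log10 q of 3 or more was reached by 8 of the 65 Sox5 peaks and 4 of the 12 Sox6 peaks. The contrast thus lay mostly in weaker peaks. Along Sox5 the peaks were spread over the gene, with 21, 26 and 18 in 3 equal parts from the 5′ end. Sox13 (chromosome 1, 133382300 to 133424459) was denser than both, with 9 peaks, 14.5 per 100 kb (6.62 to 27.5) and 20.7% of the window covered. Its interval overlapped that of Sox5 but not that of Sox6. A run of 5 peaks between 133381611 and 133400294 lay in the 3′ part of Sox13.

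**Figure D5:**
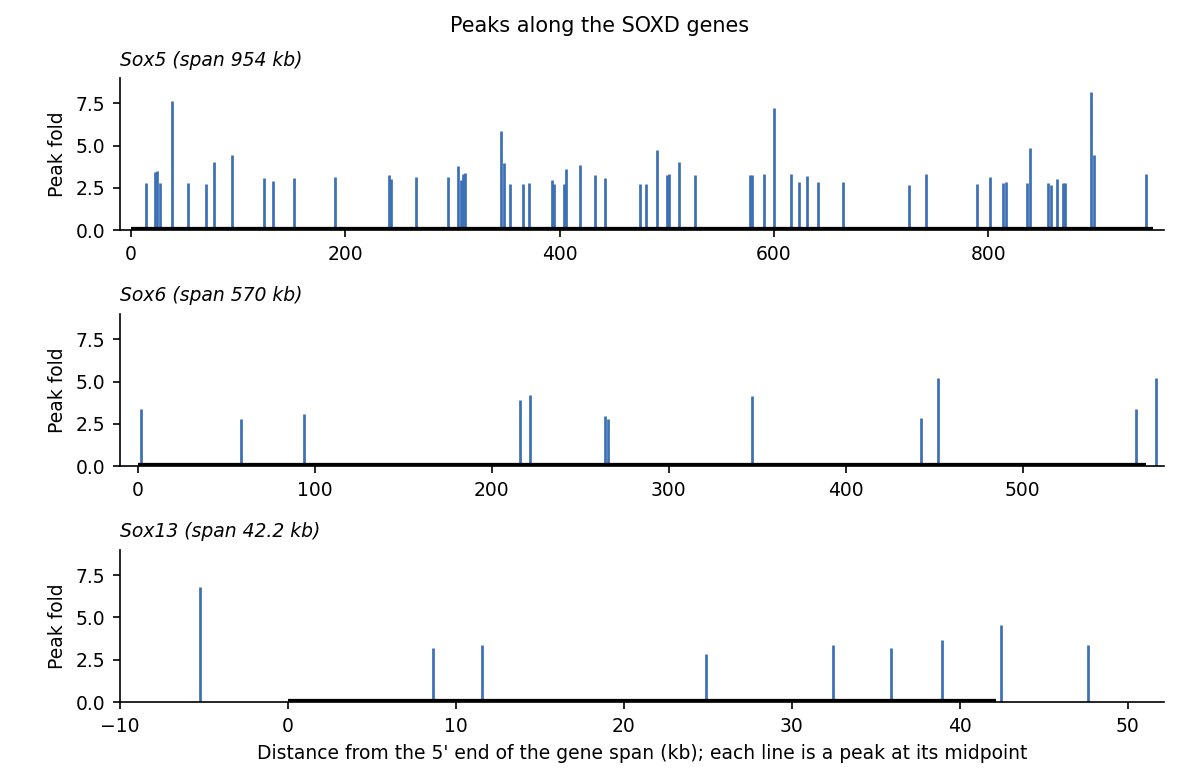
Position (x axis, kb from the 5′ end of the span) and fold enrichment (y axis) of each peak at Sox5, Sox6 and Sox13, drawn at its midpoint, with the gene span as a black bar. Sox5 has 65 peaks spread over 954 kb, Sox6 has 12 over 570 kb, and the highest Sox13 peak, of fold 6.82, lies before the gene.

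Of the 218 peaks at the 46 genes, 10 had a fold over 5 (4.59%), beside 6.84% of the peaks in the windows of all genes. Sox genes had 9 of these 10 and 115 of the 218 peaks, so that 7.83% of Sox peaks had such a fold, a share near that of all genes. Sox5 had 4 of the 10, with folds of 8.20 (143885933 to 143887239), 7.63 (144743946 to 144744315), 7.20 (144182230 to 144183086) and 5.84 (144436152 to 144436743). Sox13 had a peak of fold 6.82 at 133429256 to 133430135, which is 4.80 kb upstream of the gene. Sox30, a gene of sperm formation that is needed in spermatids, had one of 6.12 within the span (chromosome 11, 46013985 to 46014648). Sox11 had one of 6.01 and Sox6 had 2, of 5.24 and 5.19. Tbx2 had the only one outside the Sox family, at 6.11 (chromosome 11, 85825156 to 85825667), and it overlaps Bcas3 and 2610027K06Rik. A peak with a −log10 q of at least 3 was present at 8 of 18 Sox, 2 of 9 Pax, 2 of 14 Tbx and 2 of 5 Gata genes, beside 38.8% of all genes. Such peaks made up 13.3% of the members' peaks and 15.9% of the peaks in the windows of all genes.

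The SOXE genes, which act in Sertoli cells, cartilage and neural crest, differed among themselves. Sox10 (chromosome 15, 79154913 to 79164490), a neural crest factor, had 7 peaks over 18.3% of its window and the highest density of the 46 genes, 23.7 per 100 kb (9.52 to 48.8). Of its 7 peaks, 3 lie on Polr2f and 2 on the non-coding Gm10863. Sox8 (chromosome 17, 25565893 to 25570686) had 3 peaks over 6.32%, with one of fold 3.11 at its 3′ end. Sox9 (chromosome 11, 112782210 to 112787757), the Sertoli cell determinant, had a single peak of 245 bases and fold 3.06, 6.80 kb from the span, and 0.959% of its window covered.

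The SOXB1 genes Sox1 and Sox2, factors of neural and pluripotent cells, had peaks beside the gene and none on it. Sox2 had 2 peaks over 8.19% of its window, 3.49 kb upstream (fold 3.01) and 6.62 kb downstream (3.56), and Sox1 had 2 over 6.75%, 7.52 kb upstream (4.25) and 6.33 kb downstream (4.40). All 4 lie within the long non-coding genes Sox2ot and Sox1ot, which span them. Of the SOXB2 genes, Sox21 had 1 peak 3.16 kb downstream and Sox14 had none.

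Among the SOXC genes, which act in neural progenitors, Sox4 had 3 peaks over 7.91% of the window, the nearest 1.27 kb upstream at fold 4.76. Sox12 had 3 over 5.02%, and it was the only member with a peak at both ends of the span. Sox11 had 1, 9.31 kb downstream, and 1.53% covered. Sox30 had 3 peaks over 2.23%. The SOXF genes Sox7, Sox17 and Sox18, factors of endothelium and endoderm, had 0 peaks in all 3 windows. Sox18 is in the shortest length class, in which 56.9% of all genes had a peak. Sox7 and Sox17 are in the next class, with 80.0%. The nearest peaks of Sox7, Sox17 and Sox18 lay 17.80, 26.5 and 17.78 kb from the span.

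The Pax genes had the lowest pooled coverage of the families, and 7 of the 9 were below the median of all genes. PAX proteins act in eye, kidney, muscle, thyroid and B cells. Pax6 (chromosome 2, 105668896 to 105698410), the eye and pancreas factor, was highest at 4.73% with 3 peaks, followed by Pax5 of the B cell lineage at 4.29% with 12. Pax7 and Pax3, paralogues of muscle and neural crest, had 8 peaks over 3.48% and 6 over 2.54%. Pax2, a kidney factor, had 4 over 2.85%, and Pax8, of thyroid and kidney, had 3 over 1.92%. Pax4, of the endocrine pancreas, had 1 peak over 2.31%, 8.28 kb from the span. In the longest 4, Pax5, Pax7, Pax3 and Pax2, the density ran from 3.58 to 6.87 peaks per 100 kb with overlapping Poisson intervals. No Pax peak exceeded fold 4.37, which was in Pax3 (chromosome 1, 78117112 to 78117340).

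Pax1 (chromosome 2, 147361930 to 147375049) and Pax9 (chromosome 12, 56691693 to 56712824), paralogues of the sclerotome and pharyngeal pouches, both had 0 peaks. The nearest peak was 63.1 kb from Pax1 and 17.2 kb from Pax9. Both are in the length class of 12.0 to 25.1 kb, in which 86.0% of all genes had a peak. Of Pax peaks, 32 of 37 touched the gene span.

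In the Tbx family more peaks lay beside the genes than on them, 23 of 40. In Sox 24 of 115 lay beside the genes, but the long Sox5 and Sox6 held 65 and 11 of the 91 peaks on them. The flanks of 10 kb weigh more in short genes, and the median Tbx span was 15.8 kb. The split over all genes was not computed. Tbx2 to Tbx5 act in limb and heart and stand as neighbouring pairs, Tbx2 with Tbx4 on chromosome 11 and Tbx3 with Tbx5 on chromosome 5. Within the chromosome 11 pair, Tbx4 (85886367 to 85916097) had 8 peaks over 13.3%, the highest coverage of the family, and Tbx2 (85832615 to 85841948) had 6 over 8.63%. In the other pair Tbx3 (119670534 to 119684724) had 4 over 7.52%, and Tbx5 (119796514 to 119885220) had 2 over 0.538%. The 3 Tbx3 peaks outside the gene lie on the antisense genes Tbx3os1 and Tbx3os2. Tbx5, at 1.84 peaks per 100 kb, was at percentile 12.6 of its length class by coverage.

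Tbx1 and Tbx10, the former a pharyngeal arch factor, were alike in coverage, with 4 peaks over 12.7% and 3 over 12.9%. The Tbx10 value came mostly from a peak of 2.65 kb and fold 2.94 within the 3′ part of the gene (chromosome 19, 3996584 to 3999232). T, the brachyury gene of the primitive streak, had 2 peaks over 7.78%, one inside the gene (fold 2.90) and one 2.90 kb upstream (2.77). Its relative Tbx19, a pituitary factor, had 1 peak, of fold 3.08, over the promoter printed above, and 1.51% covered. Tbx21, the T-bet gene of T cells, had 4 peaks over 4.42%, while Tbr1, a cortical neuron factor of the same subfamily, had 0, the nearest being 39.8 kb away.

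Tbx20, a heart factor, had no peak in its 53.5 kb span and 2 broad ones downstream, of 3.47 and 2.25 kb. The wider one runs past the edge of the window, so the 4.04% covered came mostly from the narrower one. Tbx6, of the presomitic mesoderm, had 2 peaks over 2.05%, on the neighbours Gdpd3 and Aldoa. Tbx15 and Tbx18, paralogues of mesoderm, were nearly empty. Tbx15 had 2 peaks over 0.465% of its window, and Tbx18 had 0, with its nearest peak at 31.7 kb.

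Gene length and neighbours moved with these values. Over all genes the share with a peak rose from 56.9% in the shortest length class to 95.4% in the longest, through 80.0%, 86.0% and 90.7%. The members had a peak at 5 of 7, 12 of 15, 4 of 6, 8 of 9 and 9 of 9 genes of the same classes, with no steady rise. Another protein-coding gene lay in the window of 14 of the 46 genes (30.4%), against 63.6% of all genes. Where the window held no other coding gene, 27 of 32 members (84.4%) had a peak, beside 72.5% of all such genes. Where it did, 11 of 14 (78.6%) did, beside 87.1%. Of the 63 peaks outside the members' spans, 14 overlapped another coding gene. The part of neighbours and length in the family values was not tested.

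Cofactors and partners of these proteins were listed by name, with earlier results of these data known. Peaks were present at 19 of these 26 genes, with a median of 3.08% of the window covered, beside 81.8% and 4.24% for all genes. Eomes and Mga, T-box genes with other names, had 3 peaks each. Of the GATA cofactors and relatives 4 of 6 had a peak, with Ldb1 at 26.4% and Zfpm1, which encodes a GATA cofactor, at 15.6% covered, while Zfpm2 and Trps1 had 0. Pax partners had peaks at 5 of 6, with 23 peaks at Eya2 and 0 at Dach1. Among SOX partners and genes around SOX9 in the gonad 6 of 8 had a peak, led by Nr5a1 at 17.9% and Dmrt1 at 15.6% with 18 peaks. Pou5f1, the partner of SOX2, had 3 over 13.7%, and Pou3f2 and Fgf9 had 0. Of the cardiac partners Hand2 and Mef2c had 1 peak each, and Nkx2-5 and Isl1 had 0.

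Marker genes of the cells the sample could hold also had peaks: 6 of 7 germ cell genes, 6 of 6 gonadal soma genes and 5 of 6 blood and endothelial genes, beside 81.8% of all genes. The median coverage of these lists was 1.64%, 5.34% and 12.8%, beside 4.24% for all genes. Amh, Wt1 and Nr5a1 stand both in the gonadal soma list and among the SOX9 genes. Peaks do not measure expression, so these values neither name a cell type nor show another one, and their part in the family values was not tested.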

How the data were processed

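Broad 5hmC peaks of 1 captured library were used; the library before capture gave no values. Per the submitters' processing notes, mm10 was the build and MACS2 2.1.0, Bowtie2 2.5.0, deepTools 3.5.1, bedtools 2.27.1, SAMtools 1.16.1 and Trim Galore were used. What each tool did, how peaks were called and whether a control entered is not given in the sources used here. Each deposited peak carries a fold enrichment (the ratio of captured signal to assumed background). It carries a deposited −log10 p and a deposited −log10 q too, with 1.01 as the lowest −log10 q. The authors' score equals 10 times that −log10 q, rounded down, in 108385 peaks. Read depth is unknown.

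Gene spans came from RefSeq on GRCm38.p6, the build of mm10. Another 105 genes that start in the opening 3 Mb gap of an autosome were left out. A peak counted when it overlapped a window by at least 1 base. Densities were taken over the union of windows. Intervals are exact Clopper-Pearson or Poisson 95% intervals for counting error only, and neighbouring peaks and genes are not independent. Genes were put into 5 length classes of nearly equal size, and coverage was ranked inside them. The interval code was tested on simulated data of 200 genes. Python 3.11.15, pandas 2.3.3, numpy 2.4.6 and scipy 1.17.1 were used.

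Every member is named. Given in detail are the 4 most covered genes of each family, those with the highest fold and those with an end peak. The members and lists were chosen with earlier results of these data known. Alternatives were other q thresholds, flanks, overlap rules, merged peaks and fewer members.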

Additional observations from a re-analysis of the deposited data

How the results depend on the processing

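The q threshold had the widest effect. With a −log10 q of at least 3, a peak was left at 8 Sox, 2 Pax, 2 Tbx and 2 Gata genes, with 1.03, 0.387, 0.287 and 1.15 peaks per 100 kb and 0.664%, 0.254%, 0.396% and 1.63% of the windows covered. With at least 5 the numbers were 5, 0, 1 and 0 genes, 0.394, 0, 0.143 and 0 peaks per 100 kb, and 0.292%, 0%, 0.0734% and 0% covered. All genes then had a peak at 38.8% and 17.0%. Gata had the highest density and coverage under every other setting that was run and at a −log10 q of 3, but not at 5, where Sox was highest. At 3 the Gata values rested on 3 peaks at 2 genes. Of the 21 Sox peaks left at 3, 8 were at Sox5 and 4 at Sox6. Sox without these long genes was not run at that threshold. Without flanks, 8 of 18 Sox genes (44.4%) had a peak, beside 64.3% of all genes, and Tbx had 4.07 peaks per 100 kb, beside 5.83. With flanks of 50 kb coverage rose to 5.30% for Sox and 6.48% for Tbx. Flanks of 5 kb, the midpoint or at least 50% of the peak in the window, merged peaks, leaving out T and Tbr1, and, chosen after seeing the data, leaving out the single longest gene of each family moved no family count by over 1.5 times and no density or coverage beyond the relative width of its Poisson interval. Leaving out both long Sox genes, Sox5 and Sox6, also chosen after seeing the data, raised Sox to 8.12 peaks per 100 kb and 7.70% covered, still below Gata, with a peak at 12 of 16 genes. No paired analysis was possible because a single library gave values. The unknown depth and the missing replicate limit every value.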

Other observations

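The families were also described at a wider distance. With flanks of 50 kb the Tbx windows had 6.92 peaks per 100 kb and the Sox windows 6.65, against 4.07 and 5.44 in the gene spans alone. Over all autosomal protein-coding genes the density went the other way, from 5.83 in the spans to 5.41. The Pax values were 5.37 and 4.61. The Gata values did not move one way: 9.35 in the spans, 9.51, 9.99 and 8.78 with flanks of 5, 10 and 50 kb. Gata coverage was 6.76% in the spans and 7.56% with 50 kb, beside 5.14% and 4.85% over all genes. Flanks give short genes more weight, so distance and the mix of genes cannot be told apart in these changes. Sox5 and Sox6, of 954 and 570 kb, make up most of the Sox spans and less of the wider windows. Without them Sox already had 8.12 peaks per 100 kb with flanks of 10 kb, and they were not left out at other flanks. Of the 46 genes, Pax1 alone had no peak within 50 kb, since 18 Sox, 14 Tbx, 5 Gata and 8 of 9 Pax genes had one. Of all autosomal protein-coding genes 96.2% had one, so the members were near the background. These are values of 1 library with no test.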
